A study of Homo sapiens with 6 samples.

Results

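The AP-1 family of JUN and FOS genes was examined in akirin2 KO and WT HL60 cells. The members are the 7 genes JUN, JUNB, JUND, FOS, FOSB, FOSL1 and FOSL2, found by gene name among the 17499 genes of the deposited table. All 7 were listed, and all 7 were among the 17425 genes tested. HL60, a human promyelocytic leukemia cell line, serves the study as a model of neutrophils. In the akirin2 KO group (KO1 to KO3, 3 biological replicates) the cells had received a guide RNA against akirin2 with SpCas9, and the labels give the genotype as AKR2 knock down. In the WT group (WT1 to WT3, 3 biological replicates) the cells had received the SpCas9 nuclease only. Both groups were grown in RPMI medium with fetal bovine serum, with no differentiating agent or stimulus named in the labels. No clone was grown out of the edited cells, so that the KO values average over edited and unedited cells. The paper reports the editing as incomplete, and expression was not measured apart in edited and unedited cells. Whether the replicates of a group were cultured apart is not stated in the sources.

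AP-1 is a transcription factor made of pairs of proteins that share a basic region, which contacts DNA, and a leucine zipper, which holds the pair together. JUN, JUNB and JUND pair with each other or with FOS, FOSB, FOSL1 and FOSL2, whereas the FOS proteins need a JUN protein as partner. The pairs bind the site TGANTCA or the cyclic AMP response element (CRE) TGACGTCA. Several of these genes are immediate-early genes, which are transcribed within minutes of a signal through MAP kinases. In myeloid cells AP-1 is known for its part in monocyte and macrophage differentiation and in inflammatory transcription.

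CRE-type letters lie close to the start of several members, and these short stretches are shown because the members that hold them differed in their response to akirin2 KO. The RefSeq promoter windows (GRCh38.p14) of 6 members, all but FOSL1, were searched on both strands over the 250 bases before the start site for TGACGTCA, its first 6 letters TGACGT and the variant TGACATCA. Each stretch below has 30 bases, written 5′ to 3′ on the strand of the gene, with the matching letters in capitals.
JUN, chr1:58784096-58784125, minus strand: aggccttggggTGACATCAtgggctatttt
JUND, distal, chr19:18281804-18281833, minus strand: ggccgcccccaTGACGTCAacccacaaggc
JUND, proximal, chr19:18281692-18281721, minus strand: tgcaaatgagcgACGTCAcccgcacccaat
FOS, chr14:75278752-75278781, plus strand: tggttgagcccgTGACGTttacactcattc
FOSB, chr19:45467924-45467953, plus strand: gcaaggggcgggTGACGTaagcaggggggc
FOSL2, chr2:28392780-28392809, plus strand: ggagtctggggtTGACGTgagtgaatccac

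Counted from the RefSeq start site, the matches lie at −67 to −60 in JUN, −64 to −59 in FOS, −60 to −55 in FOSB and −66 to −61 in FOSL2. The GENCODE 29 gene starts 280 bases further upstream for JUN and 410 for FOSL2, so that by that annotation the stretches of these 2 genes lie inside the gene. For FOS it starts 54 bases further upstream, and for FOSB 1 base. JUND, the most abundant member, has a full CRE at −200 to −193 and, on the other strand, the 6 letters at −87 to −82. Both stand in the 210 bases before its start site, which are shown for that reason.
JUND, chr19:18281623-18281832, minus strand: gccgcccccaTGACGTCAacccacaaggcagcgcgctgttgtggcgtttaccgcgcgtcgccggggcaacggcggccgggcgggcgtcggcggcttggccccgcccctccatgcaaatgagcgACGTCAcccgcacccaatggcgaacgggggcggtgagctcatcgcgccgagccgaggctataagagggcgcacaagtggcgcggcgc
JUNB has none of these letters in its window. Of 35116 RefSeq promoters of the same length, 1.65% hold TGACGTCA, 7.1% hold TGACGT, which TGACGTCA contains, and 2.37% hold TGACATCA. TATAAA, the letters of the TATA box, occurs in JUNB, FOS and FOSB and in 10.7% of all promoters. CCAAT occurs in JUN, JUNB and JUND and in 32% of all promoters. No match to TGANTCA, to the CArG box of serum response factor or to the NF-kB site was found in these windows. Bases farther upstream were not searched, so that sites of these factors may lie there. TGANTCA occurs in 6.57%, the CArG box in 1.16% and the NF-kB site in 8.04% of all promoters. A match is a description of the letters only.

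The libraries held 36096459 to 47607520 reads in KO and 41419318 to 52244122 in WT. A normalized count is the number of reads of a gene divided by a size factor of the library, and 1 read was worth 0.837 to 1.20 normalized counts. Mitochondrially encoded genes took 10.8% to 11.1% of the reads in KO, against 6.86% to 7.07% in WT, and their part in the results was not tested. AKIRIN2 itself had 1613, 1731 and 1651 normalized counts in KO1 to KO3, against 2378, 2450.4 and 2420.2 in WT1 to WT3. Markers of promyelocytes were abundant in all libraries. Their summed normalized counts over 10 genes were 1062649 to 1101041 in KO and 391248 to 415724 in WT, with MPO at the top. Groups were compared with limma on log2(normalized count + 1), a scale that understates the change of low genes, and fold changes are KO/WT. A gene was called higher or lower at a Benjamini-Hochberg adjusted p under 0.05 over all genes tested, and such a p measures only the spread among these 6 libraries. In RNA of whole cultures, fewer cells of a type and less RNA per cell cannot be told apart.

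Transcripts of 5 of the 7 members were lower in KO, namely JUN, JUND, FOSB, FOSL2 and JUNB, and no member was higher. FOS and FOSL1 did not pass the test. Over all genes 60.6% were called, 30.3% as lower and 30.3% as higher in KO. All 5 members that fell did so by more than 1 on the log2 scale, which 8.37% of all genes did. The median log2 fold change of the 7 members was −1.57, against −0.0066 over all genes tested.

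**Figure D1:**
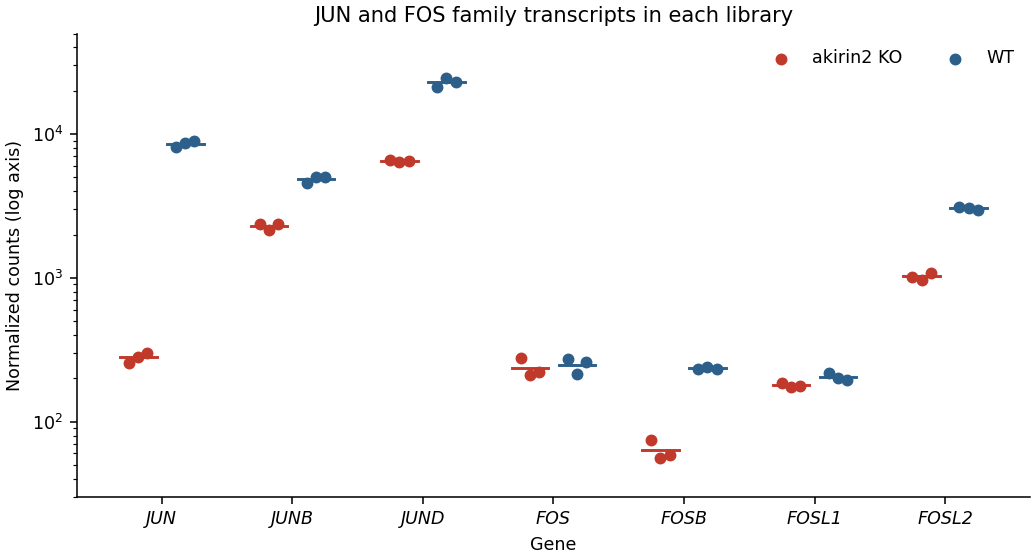
Normalized counts (log axis) of the 7 members in the 3 akirin2 KO libraries (red) and the 3 WT libraries (blue), each point a library and each line the group mean. The KO and WT points of JUN lie farthest apart, at 256 to 301 in KO and 8094 to 8883 in WT, and those of FOS lie on top of each other.

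JUN, the founding member and a strong activator, showed the largest difference in the family. Its normalized counts were 256, 283 and 301 in KO1, KO2 and KO3, against 8094, 8699 and 8883 in WT1, WT2 and WT3. The 3 KO libraries lay close together and far below every WT library, at a mean of 280.1 ± 22.9 in KO and 8558 ± 413 in WT (SD, n = 3 each). The WT mean was 30.5 times the KO mean. On the log2 scale JUN changed by −4.93 (standard error, SE, 0.061, 95% interval −5.06 to −4.80, limma adjusted p = 2.1e-21). By exact permutation of the 6 library labels (two-sided) p was 0.1 for JUN, for each other member that fell and for FOSL1. A comparison of 3 libraries against 3 cannot give a smaller p. JUN had the 13th lowest log2 fold change of the 17425 genes tested. The value rests on 280, 282 and 251 reads in KO1 to KO3. JUN lies on chromosome 1 from 58780788 to 58784327 (GENCODE 29, GRCh38) and is a gene of 1 exon.

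JUND, which is expressed in many resting cells, was the most abundant member in both groups. It had 6558, 6352 and 6451 normalized counts in KO1 to KO3, against 21316, 24438 and 23109 in WT1 to WT3. The groups did not overlap, and the WT mean was 3.56 times the KO mean. The log2 fold change was −1.83 (SE 0.048, limma adjusted p = 1.4e-16). JUNB, a weaker activator that can oppose JUN, showed the smallest change of the members that fell. It had 2378, 2164 and 2367 normalized counts in KO1 to KO3 and 4529.5, 5021 and 5035 in WT1 to WT3, a log2 fold change of −1.08 (SE 0.053, limma adjusted p = 1.7e-12). JUNB still had 47.4% of its WT level in KO, against 28.1% for JUND and 3.27% for JUN. Both are single-exon genes on chromosome 19, JUND from 18279760 to 18281622 and JUNB from 12791496 to 12793315. An exon of HOOK2, on the opposite strand, overlaps JUNB in GENCODE 29. Whether reads were counted by strand is not given in the sources used here, so reads of the overlap cannot be told apart. HOOK2 had 1598 ± 64.2 normalized counts in KO and 1571 ± 62.0 in WT (SD, n = 3 each, limma adjusted p = 0.72).

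Among the FOS genes, FOSL2 and FOSB were lower in KO. FOSL2 encodes FRA-2, a FOS protein without the strong activation domain of FOS. It had 1018, 973 and 1087 normalized counts in KO1 to KO3, against 3132, 3065 and 2951 in WT1 to WT3. Every KO library lay below every WT library, and the log2 fold change was −1.57 (SE 0.053, limma adjusted p = 7.3e-15). FOSB is an immediate-early gene whose spliced form delta-FosB is long-lived, and a count per gene does not separate the forms. It had 74.9, 56.2 and 58.8 normalized counts in KO1 to KO3, against 231, 241 and 233 in WT1 to WT3. The log2 fold change was −1.89 (SE 0.14, 95% interval −2.19 to −1.58, limma adjusted p = 1.1e-09). In KO this rests on 82, 56 and 49 reads, and the coefficient of variation was 16.0% in KO, against 2.12% in WT. The gene body of ERCC1, a DNA repair gene on the opposite strand, spans FOSB without a shared exon. ERCC1 had 3678 ± 53.2 normalized counts in KO and 4349.7 ± 287 in WT (SD, n = 3 each).

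FOS, the best-known immediate-early gene, had 279, 211 and 222 normalized counts in KO1 to KO3, against 274, 214 and 259 in WT1 to WT3. The libraries of the groups overlapped. The log2 fold change was −0.072 (SE 0.12, 95% interval −0.33 to 0.18, limma adjusted p = 0.63). This interval holds changes of up to 0.33 on the log2 scale downward, and it excludes a fall of the size of JUNB or of any other member that fell. The sign of this small value changed without KO2, at 0.0069, and without WT1, at 0.0008. FOS and FOSB share the letters TGACGT at nearly the same distance from the RefSeq start, as printed above. Whether these letters have a part in the response of either gene was not tested. FOSL1 encodes FRA-1, a FOS protein known from growth factor signalling and adherent cells. It had 185, 175 and 177 normalized counts in KO1 to KO3, against 216, 202 and 194 in WT1 to WT3. Every KO library of FOSL1 lay below every WT library, as in 32.5% of all genes. The log2 fold change was −0.19 (SE 0.11, 95% interval −0.42 to 0.04, limma adjusted p = 0.14). FOSL1 passed the threshold, at the same fold change of −0.19, when the variance was modelled without its trend on the mean and when unlogged values entered a plain linear model.

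**Figure D2:**
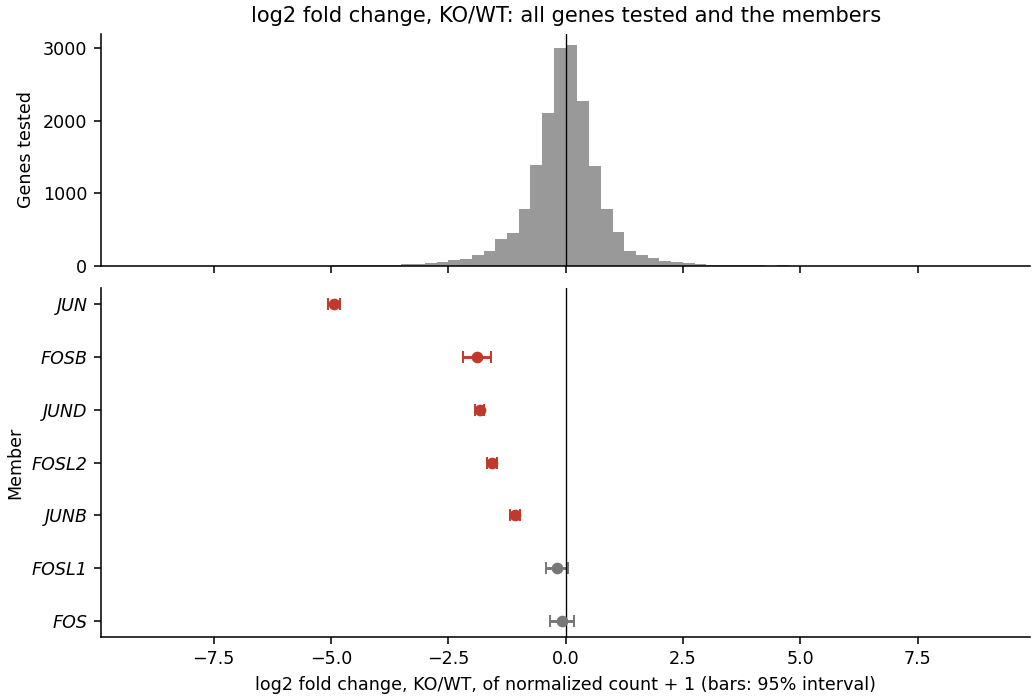
The upper panel counts all 17425 genes tested by log2 fold change (KO/WT, bins of 0.25), and the lower panel gives each member with its 95% interval. Members called lower in KO are red, and FOS and FOSL1, which did not pass the test, are grey with intervals that include 0.

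How far the members moved was compared between them. For each of the 21 pairs of members, the difference of their log2 values was compared between KO and WT. The log2 value of JUN minus that of JUNB was −3.04 ± 0.15 in KO and 0.82 ± 0.02 in WT (SD, n = 3 each), a difference KO minus WT of −3.85. For JUN against JUND this difference was −3.10, and for JUN against FOS it was −4.86. The KO and WT libraries overlapped in 3 pairs, at differences of 0.06 for JUND minus FOSB, 0.12 for FOS minus FOSL1 and −0.31 for FOSB minus FOSL2. They did not overlap in the other 18 pairs. Pairs that share a member are not independent, and the same share over other pairs of genes was not computed. An exact two-sided permutation test cannot go below p = 0.1 here (0.12 adjusted over the 21 pairs), so that no pair could pass a threshold of 0.05 and the test does not bear on which members moved alike.

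Levels of different genes were compared as normalized counts per kilobase (kb) of joined exons. In KO the order was JUND at 3464, JUNB at 1265, FOSL2 at 143, FOSL1 at 94.8, JUN at 79.1, FOS at 73.3 and FOSB at 11.4 normalized counts per kb. In WT it was JUND at 12321, JUNB at 2671, JUN at 2418, FOSL2 at 426, FOSL1 at 108, FOS at 76.9 and FOSB at 42.3. JUN thus stood below FOSL2 and FOSL1 in KO and above all 4 FOS genes in WT. The ranges of JUN and FOS overlapped in KO, those of JUNB and JUN overlapped in WT, and all other neighbours in either order lay apart in the 3 libraries. Among 17347 genes with a length, JUN ranked 9619th per kb in KO and 670th in WT. JUND ranked 467th in KO and 149th in WT. With the length of the longest transcript in place of the joined exons, FOS had 129, 97.7 and 103 per kb in KO1 to KO3, FOSL1 had 111, 105 and 106 and JUN had 72.3, 80.0 and 85.1. FOS then overlapped FOSL1 and lay above JUN in every KO library. By the same length FOS had 127, 99.0 and 120.2 per kb in WT1 to WT3 and FOSL1 had 129, 121 and 116. These ranges overlapped in WT too.

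Summed over the 7 members, the family had 5132 ± 133 normalized counts per kb in KO and 18064 ± 1064 in WT (SD, n = 3 each). JUND made up 68.5% of this difference, JUN 18.1%, JUNB 10.9% and FOSL2 2.19%. JUND kept a nearly constant share of the JUN genes, at 72.0% ± 0.745 in KO and 70.8% ± 0.716 in WT (SD, n = 3 each). The share of JUN was 1.65% ± 0.151 in KO and 13.9% ± 0.431 in WT (SD, n = 3 each), and that of JUNB was 26.3% ± 0.772 in KO and 15.3% ± 0.300 in WT (SD, n = 3 each). The JUN genes therefore shifted toward JUNB at a lower total. Within the FOS genes, FOSL2 had the largest share in both groups, at 44.5% ± 2.49 in KO and 65.2% ± 1.05 in WT (SD, n = 3 each). The shares of FOSL1 and FOS were 29.4% and 22.6% in KO, against 16.5% and 11.8% in WT. The JUN genes together had 14.9 ± 0.497 times the level per kb of the FOS genes (SD, n = 3) in KO and 26.7 ± 2.44 times (SD, n = 3) in WT. With the length of the longest transcript this ratio was 12.5 ± 0.515 in KO and 23.1 ± 2.16 in WT (SD, n = 3 each). These shares are of RNA and carry no test, and the content of the pairs at the protein level was not measured here.

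**Figure D3:**
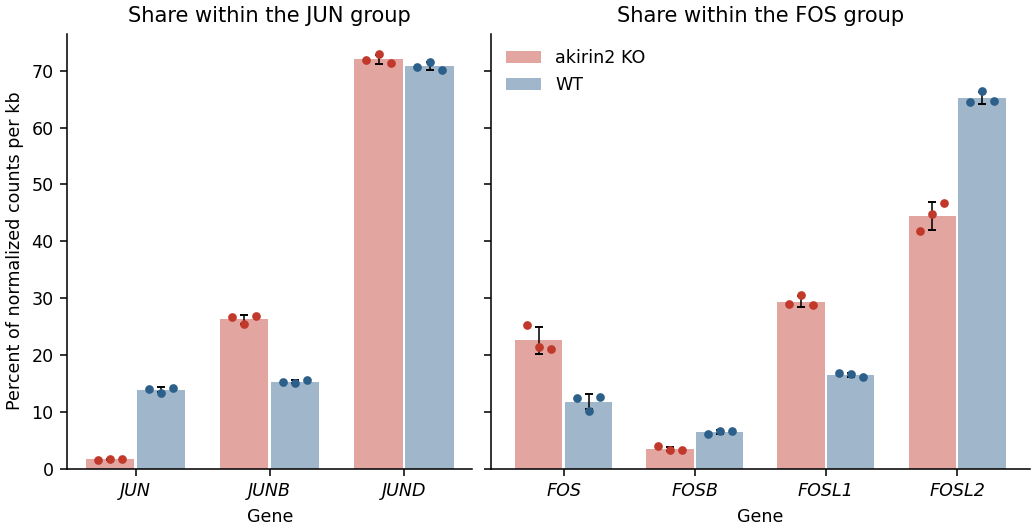
Share of each member in the normalized counts per kb of the JUN genes (left) and of the FOS genes (right), with akirin2 KO in red and WT in blue. Bars are means, error bars are SD of 3 libraries and points are libraries. JUND stays near 72.0% in KO and 70.8% in WT, while JUN takes 1.65% in KO and 13.9% in WT.

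Other proteins of the same class pair with JUN or FOS. The counts of called genes below stand beside 60.6% called over all genes, 30.3% as lower and 30.3% as higher. Of 6 tested genes of the ATF, BATF and JDP families, 4 were lower in KO and 1 was higher, with a median log2 fold change of −0.67. ATF3, a stress-induced partner of JUN, had 21.9 to 30.1 normalized counts in the KO libraries, against 511, 513 and 407 in WT1 to WT3. BATF3, which pairs with JUN proteins in dendritic cells and lymphocytes, had 15.5, 21.1 and 21.6 in KO1 to KO3, against 399.9, 409 and 396 in WT1 to WT3. Both were low in every KO library, with log2 fold changes of −4.08 and −4.32 (limma adjusted p = 6.2e-14 and 5.2e-14). JDP2, a repressor that binds JUN, had a log2 fold change of −1.19, while ATF2, a partner of JUN at CRE sites, had one of −0.053 (limma adjusted p = 0.49). BATF, a relative of BATF3 that was named after its values were seen, was the gene of this list that was higher. It had 598, 571 and 563 normalized counts in KO1 to KO3, against 245, 219 and 232 in WT1 to WT3, a log2 fold change of 1.31 (limma adjusted p = 7.1e-11). Of 6 tested genes of the MAF and BACH families, related factors with the same kind of zipper, 3 were lower and 1 was higher. Their log2 fold changes included −2.52 for MAFF, −0.56 for MAFG and 0.39 for MAFK.

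The kinase branches that lead to AP-1 had medians nearer to 0 than the JUN and FOS genes. Their counts stand beside 30.3% of all genes called lower and 30.3% called higher. ERK signalling induces FOS through serum response factor and its ELK partners, whereas the JNK kinases phosphorylate JUN and the p38 kinases act on ATF2 and other factors. In the ERK branch 11 of 12 tested genes were lower in KO and none was higher, with a median log2 fold change of −0.35. MAPK3, which encodes ERK1, fell by 0.78 on the log2 scale, and RPS6KA2, a ribosomal S6 kinase, fell by 1.78. The more abundant MAP2K2 and RPS6KA1 were at −0.73 and −0.32. In the JNK branch 4 of 9 tested genes were lower and 1 was higher, with a median of −0.09. MAPK8IP3, a JNK scaffold, fell by 0.61, and MAP2K7, which activates JNK, fell by 0.38. In the p38 branch 5 of 10 tested genes were lower and 2 were higher, with a median of −0.23. MAPK11, a p38 kinase, fell by 1.35, and MAP2K6, which activates p38, rose by 2.28 from a low level, with 62.1, 67.3 and 73.2 normalized counts in KO1 to KO3, against 9.39, 7.87 and 29.3 in WT1 to WT3. MAPKAPK3 fell by 0.39, and MAPK12 had a log2 fold change of 0.044 (limma adjusted p = 0.48).

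Of 11 tested transcription factors that act at the FOS and JUN promoters, 5 were lower, 1 was higher and 5 did not pass the test. Their median log2 fold change was −0.06. Over all genes 30.3% were called lower and 30.3% higher, beside which the counts of this paragraph stand. SRF, the serum response factor, had a log2 fold change of 0.014 (limma adjusted p = 0.85). CREM and MEF2A were at −0.54 and −0.41, and MRTFA, a coactivator of SRF listed as MKL1, fell by 0.28. Of 8 genes of JUN and FOS protein turnover, 5 were lower and 2 were higher. TRIB3 and TRIB2, pseudokinases of the COP1 ligase system, were at −2.89 and −1.01, while UBE3A, a ligase of ubiquitin, was at 0.29. Of 8 coregulators, 3 were lower and 3 were higher. CREBBP, a coactivator, was at −0.60, and SMARCA4, the ATPase of BAF complexes, had a log2 fold change of 0.15. MEN1, whose product menin binds JUND and which was named after its values were seen, had one of 0.35 (limma adjusted p = 8.4e-06).

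Of 20 tested genes described as AP-1 targets in other cells, 16 were lower in KO and 1 was higher, with a median log2 fold change of −1.13, against 30.3% of all genes called lower. The list was chosen with earlier results of these data known, so its counts cannot test whether AP-1 targets changed along with the JUN and FOS genes. These genes have other regulators too, and NF-kB is known to act on several of them. The chemokine genes CCL2 and CXCL8 had log2 fold changes of −5.58 and −3.76. VEGFA, the vascular endothelial growth factor, had 3665, 3329 and 3558 normalized counts in KO1 to KO3, against 19215, 19489.7 and 19758 in WT1 to WT3. Its groups lay far apart, and it fell by 2.47. Over the alternatives 14 to 16 genes of this list were lower, with 15 without WT1 and 14 without KO1 or without WT2.

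**Figure D4:**
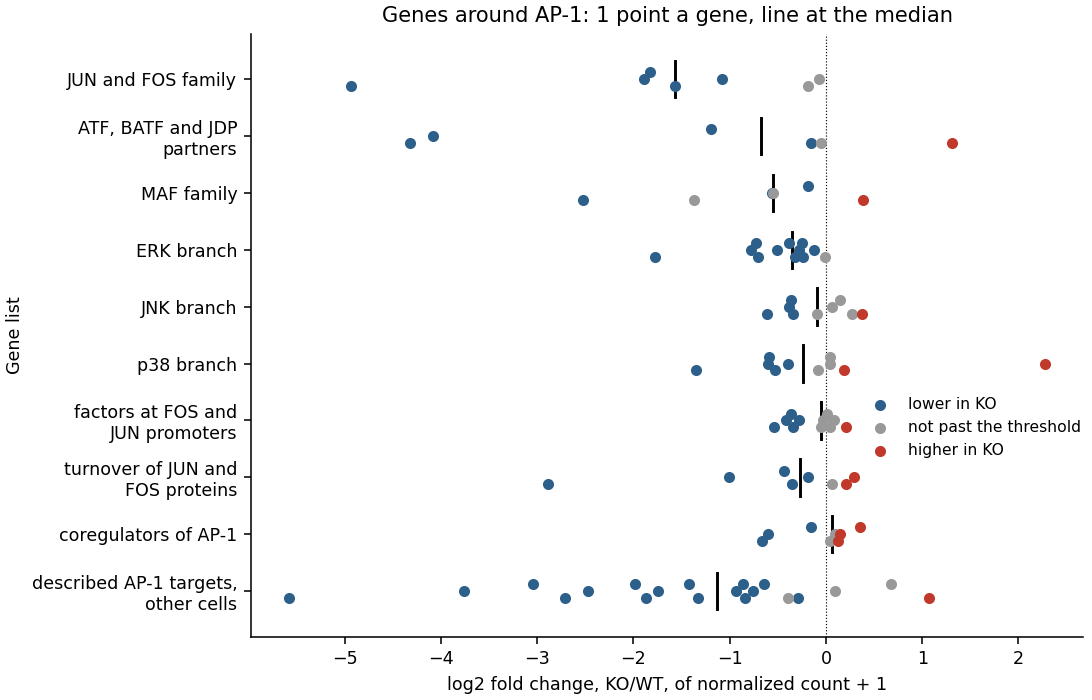
log2 fold change (KO/WT) of each tested gene of the JUN and FOS family and of 9 lists of genes around AP-1, with blue for lower in KO, red for higher in KO and grey for not past the threshold. The line of each list is its median, at −1.57 for the family, −1.13 for the described targets and −0.35 for the ERK branch.

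Genes outside the family were ranked by how closely their log2 values, centred over the 6 libraries, followed each member. The measure was the Euclidean distance, over the 11294 genes that averaged 100 normalized counts or more. A small distance mostly reflects a like difference between KO and WT, as with log2 fold changes of −1.08 for JUNB and −1.06 for VPS51. Nearest to JUN were C3AR1, the receptor of complement C3a, at a distance of 0.63, and ADM2, a peptide hormone, at 0.67. Nearest to JUND were JUP (plakoglobin) at 0.06 and the kinase PLK3 at 0.08, and nearest to JUNB were VPS51 at 0.04 and EHBP1L1 at 0.06. Nearest to FOSB were FPR1, a receptor of formyl peptides on phagocytes, at 0.14 and P3H3 at 0.21. ACSL1 at 0.08 and NFE4 at 0.09 were nearest to FOSL2, TAS2R14 at 0.11 and LGALS3 at 0.17 to FOS, and RMDN3 and IAH1, both at 0.05, to FOSL1. JUN, with the 13th lowest log2 fold change of all genes tested, had no near neighbour at the distances of the other members. Its Pearson correlation over the 6 libraries was 0.998 with C3AR1 and 0.994 with ADM2. Tight groups that lie far apart give values near these for any such gene, so the correlation does not single out these genes.

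Markers of other cell types were measured beside these results. Their counts stand beside 30.3% of all genes called lower and 30.3% called higher. Of 10 tested monocyte and macrophage markers, 4 were lower in KO and 3 were higher. CD14 fell by 3.05 and FCGR3A, which is low in all libraries, fell by 2.52 on the log2 scale, while LYZ had a log2 fold change of 1.65 and FCGR1A one of −1.34. The summed normalized counts of this list were 21108 to 21564 in KO and 11171 to 11539 in WT, most of them from LYZ. Without LYZ the other 9 markers summed to 2114 to 2215 in KO and 5088 to 5352 in WT, so that the direction turned. Of 5 tested lymphocyte markers, 2 were lower and 2 were higher, with CD3E at −2.95, NKG7 at −1.27 and CD79A at 0.69. Their sum was 1521 to 1627 in KO and 3222 to 3810.5 in WT, and without NKG7 the other 4 markers summed to 301 to 303 in KO and 279 to 345 in WT. Of 10 tested promyelocytic markers, 8 were higher and 1 was lower, with PRTN3 at 4.14, CTSG at 3.37 and MPO at 0.92. The part of these markers in the fall of the JUN and FOS genes was not tested. Of 7 tested fibroblast and epithelial markers, only CDH11 was called, at −1.86. This count was 3 without KO2, without WT3 or with edgeR, 2 without WT2 or with the replicate block, and 0 at a minimum mean of 50 or with a plain linear model of unlogged values. Their sum was 414 to 891 in KO and 379.8 to 5539 in WT, with 4609 normalized counts of FN1 in WT1. COL1A1 was likewise highest in WT1, at 519 normalized counts. Among the WT libraries, JUN, JUNB, JUND and FOSB were lowest in WT1, and FOS, FOSL1 and FOSL2 were highest in WT1. Without WT1 and KO3 the log2 fold change of JUN was −5.02, that of JUND was −1.88 and that of FOSL2 was −1.59.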

How the data were processed

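Sequencing of RNA covered 3 akirin2 KO and 3 WT replicates of HL60 cells. The deposited signal values are normalized counts, that is, reads of a gene over the size factor of its library. Trimmomatic 0.36, Subread 1.5.2, featureCounts, DESeq2 and GRCh38 appear in the submitters' processing notes. Aligner, annotation and use of strand are not given in the sources. The table as deposited by the authors also holds their own comparison (log2 fold changes, p-values and adjusted p-values), which was not used. All values (100.0%, tolerance 0.01) were whole multiples of 1 step per library, which gave back the reads for count tests. At a step of 1 only 1.6% of the KO2 values were whole, so that its step of 1.0043 is not rounding. No library was a copy of another, since chi-square per degree of freedom was 2.08 to 11.17 between replicates.

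The main test was limma 3.58.1 (R 4.3.3, variance with a trend on the mean) on log2(normalized count + 1). Adjustment (Benjamini-Hochberg) ran over 17425 genes that averaged at least 10 normalized counts. Coordinates and lengths are those of GENCODE 29 (17420 genes matched), and promoters came from RefSeq (GRCh38.p14). The fit was tested on simulated data. The alternatives were other pseudocounts (0.5 and 5), other minimum means (none and 50), TMM scaling, totals made equal, edgeR 4.0.16 (quasi-likelihood test), DESeq2 1.42.0, no variance trend, a plain linear model of unlogged values, a replicate block, an adjusted p under 0.01, other transcript lengths, and leaving out libraries. The members and lists were chosen with earlier results of these data known. Named genes were the members, AKIRIN2, up to 2 called genes with the largest change and 2 with the highest count of each list, and the 2 genes most like each member. A gene that this rule names is not reported here. Other software was Python 3.11.15 with numpy 2.4.6, pandas 2.3.3 and matplotlib 3.10.9.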

Additional observations from a re-analysis of the deposited data

How the results depend on the processing

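JUN, JUNB, JUND, FOSB and FOSL2 were called lower in KO under all 19 alternatives run, with log2 fold changes of −5.02 to −4.87 for JUN, −1.15 to −1.02 for JUNB, −1.88 to −1.77 for JUND, −2.01 to −1.81 for FOSB and −1.61 to −1.51 for FOSL2. FOS was called under none of them (adjusted p = 0.21 at the lowest, from limma), and its value was −0.19 to 0.0069 when 1 library was left out and 0.043 without WT1 and KO3. FOSL1 was called at −0.19 without a variance trend (adjusted p = 0.043 from limma) and with an ordinary linear model on unlogged values (adjusted p = 0.049), and at no other setting, in a range of adjusted p of 0.043 to 0.42. The causes of these changes were not tested. With the length of the longest transcript in place of joined exons, the shares among the FOS genes were, in KO and in WT, 28.3% and 15.3% for FOS, 4.32% and 8.26% for FOSB, 27.8% and 16.2% for FOSL1 and 39.6% and 60.3% for FOSL2. Over all genes 8760 to 10611 were called, 10394 of them with the replicate block. Deviations of same-numbered KO and WT libraries correlated at −0.075 to 0.052 across genes, and those of differently numbered libraries at −0.079 to 0.143. So few libraries cannot settle whether replicate numbers mark a shared origin. The block changed no call of a member. Of the list counts, 239 of 247 stayed within 1.5 times, and 7 of the other 8 belong to the fibroblast and epithelial markers. Depth was lowest for FOSB, with 49 to 82 reads in KO.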
